A study of Mus musculus with 12 samples.

Results

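The antiviral effectors Mx1, Mx2, Rsad2 (viperin), Cmpk2, Bst2 (tetherin), Samhd1, Adar, Xaf1, Ifi27l2a and Ifi27 were followed by RNA-seq through the 6 conditions of a study of the microRNA miR-182 in bone marrow macrophages (BMMs), the precursors of osteoclasts. The genes were taken by symbol, and all 10 were found among the 24394 named genes. Every one was at or above 1 CPM (counts scaled to a fixed total per library) in all 12 libraries, the lowest value being 2.15 CPM for Mx2, so none depended on a high group to enter a test.

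By the labels all mice were C57BL/6 and carried LysMcre, a Cre recombinase driven from the lysozyme gene Lyz2 in myeloid cells. In the loss of function experiment WT cells were Mir182+/+LysMcre(+) and KO cells were Mir182flox/floxLysMcre(+), each cultured with M-CSF for 3 days and then left without RANKL (baseline) or treated with RANKL for 5 days. In the gain of function experiment Control cells carried LysMcre(+) alone and mTg cells carried LSL-Mir182LysMcre(+), a transgene switched on by Cre, and both were measured without RANKL. Each condition had 2 replicates, which the study calls biological, but the labels do not tie them to separate mice or cultures, so the p-values below measure the spread between these samples, which may be technical. In every condition the labels name polyA RNA and TopHat for replicate 1 and total RNA and HISAT2 for replicate 2, and Rn45s, the ribosomal RNA precursor, was at 742 to 1176 CPM in every replicate 1 and at 9778 to 21273 CPM in every replicate 2. A fit with replicate number as a block, given below where it changes a call, therefore also removes that difference. Conditions of different genotype cannot share a mouse, and within a genotype shared mice and shared preparation cannot be told apart.

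Cells that sense viral nucleic acid secrete type I interferon, which binds the receptor Ifnar1/Ifnar2, signals through transcription factors that include Stat2 and Irf9, and switches on interferon-stimulated genes through a DNA element called the ISRE. The effectors followed here act at separate steps of a viral life cycle, from copying of the genome to release of the particle. Macrophages hold a low tonic level of these genes without infection, and interferon-β made during osteoclast formation is known to restrain it.

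No site for miR-182 was found in the 3′ UTRs of the effectors. The mature microRNA is shown with its seed, bases 2 to 8, in capitals (RefSeq, GRCm38.p6, chromosome 6, 30165962 to 30165986, minus strand).
mmu-miR-182-5p: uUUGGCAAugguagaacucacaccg
The reverse complement of the seed, TTGCCAA, was in 0 of the 10 genes, against 12.9% of the 10980 tested genes with an annotated 3′ UTR (GENCODE vM21). The form that pairs with bases 2 to 7 and ends in A, TGCCAAA, was also in 0 of the 10, against 14.9%. Eif2ak2, which encodes the RNA-activated kinase PKR, held 1 copy of TGCCAAA. The 3′ UTRs searched were between 68 bases long for Ifi27 and 2660 bases for Rsad2, and absence of these letters is only a description of the annotated transcripts.

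RefSeq promoter windows were matched for 6 of the 10 genes, Samhd1, Adar, Bst2, Xaf1, Rsad2 and Cmpk2. The ISRE core, 2 copies of GAAA separated by 2 bases, on either strand, was in the windows of Bst2 and Rsad2, against 3.99% of all genes with a window. The bases upstream of these 2 start sites are shown because they carry the element named above, with the matching letters in capitals. Both lie on the minus strand and are printed in the direction of transcription, chr8:71537473-71537722 for Bst2 and chr12:26456453-26456702 for Rsad2 (GRCm38.p6).
Bst2: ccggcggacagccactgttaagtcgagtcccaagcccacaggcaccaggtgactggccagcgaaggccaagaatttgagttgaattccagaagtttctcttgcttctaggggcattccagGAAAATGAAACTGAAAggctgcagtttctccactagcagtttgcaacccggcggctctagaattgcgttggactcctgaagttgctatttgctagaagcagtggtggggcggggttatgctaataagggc
Rsad2: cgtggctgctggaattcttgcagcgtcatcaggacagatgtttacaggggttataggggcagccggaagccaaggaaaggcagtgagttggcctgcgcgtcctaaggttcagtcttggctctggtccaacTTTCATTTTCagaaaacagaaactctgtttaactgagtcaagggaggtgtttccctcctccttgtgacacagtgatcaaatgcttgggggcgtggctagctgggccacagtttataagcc
The capitals in Bst2 are 2 matches that overlap, and those in Rsad2 are 1 match on the opposite strand.

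Several of the genes are neighbours on mm10 (GENCODE vM21). Rsad2 (chr12:26442746-26456452) and Cmpk2 (chr12:26469204-26479837) are transcribed away from each other from starts 12752 bases apart. Ifi27 (chr12:103434211-103440239) and Ifi27l2a (chr12:103442167-103443680) face each other, 1928 bases apart. Mx1 (chr16:97447035-97462907) and Mx2 (chr16:97535308-97560900) are relatives 72401 bases apart, and Mx2 is annotated as a polymorphic pseudogene. The others are Samhd1 (chr2:157097533-157135265), Adar (chr3:89715022-89753446), Bst2 (chr8:71534255-71537456) and Xaf1 (chr11:72301629-72313733). Adar shares exonic sequence with Chrnb2 on the opposite strand, whose values stayed between 0.788 and 2.27 CPM while Adar stayed between 103 and 303 CPM. Ifi27l2b, the next relative of Ifi27l2a, reached at most 0.0657 CPM. How reads fitting more than 1 relative were counted is not given in the sources used here.

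The libraries held 24951280 to 33050619 reads on genes, so that 3 reads equalled 0.0908 to 0.120 CPM. Reads on the Mir182 precursor were 79 and 123 in the mTg replicates and 0 in Control, but precursor reads were 0 in WT and at most 1 in KO, so the deletion in KO could not be checked with this row. The 2 libraries of WT after RANKL were unlike the rest of their experiment. Lyz2, the gene from which LysMcre is driven, was at 4117 and 4288 CPM there, against 39.8 to 44.0 CPM in WT at baseline, 22.5 to 34.6 CPM in KO and 5783 to 7062 CPM in Control and mTg. Ifi202b, a gene of the interferon-inducible p200 family, was at 0.972 and 1.12 CPM in WT after RANKL, at 82.1 to 152 CPM in the other loss of function libraries and at 0 to 0.0908 CPM in Control and mTg. In the same 2 libraries 9 osteoclast markers summed to 10585 and 10797 CPM, against 132 and 159 CPM in WT at baseline. Whether these 2 libraries come from the mice and treatment on their labels was not tested, and WT after RANKL below means the libraries so labelled. The part of the Lyz2 and Ifi202b difference in the results below was not tested either. KO after RANKL is therefore also given against WT at baseline. The RANKL response of WT is also given against Control, and like the interaction it has no form without these libraries. The cells carried macrophage markers in all conditions (summed level of 6 genes, 5620 to 8475 CPM). Of the markers of plasmacytoid dendritic cells, which make most interferon-α, 3 of 4 were under 1 CPM in every condition. The other, Tcf4, was at 72.0 to 183 CPM. The summed level of 4 stromal markers was 6.99 to 44.3 CPM and that of 3 dendritic cell markers was 5.96 to 22.6 CPM. B cell, T or NK cell and erythroid markers were under 1 CPM throughout.

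**Figure D1:**
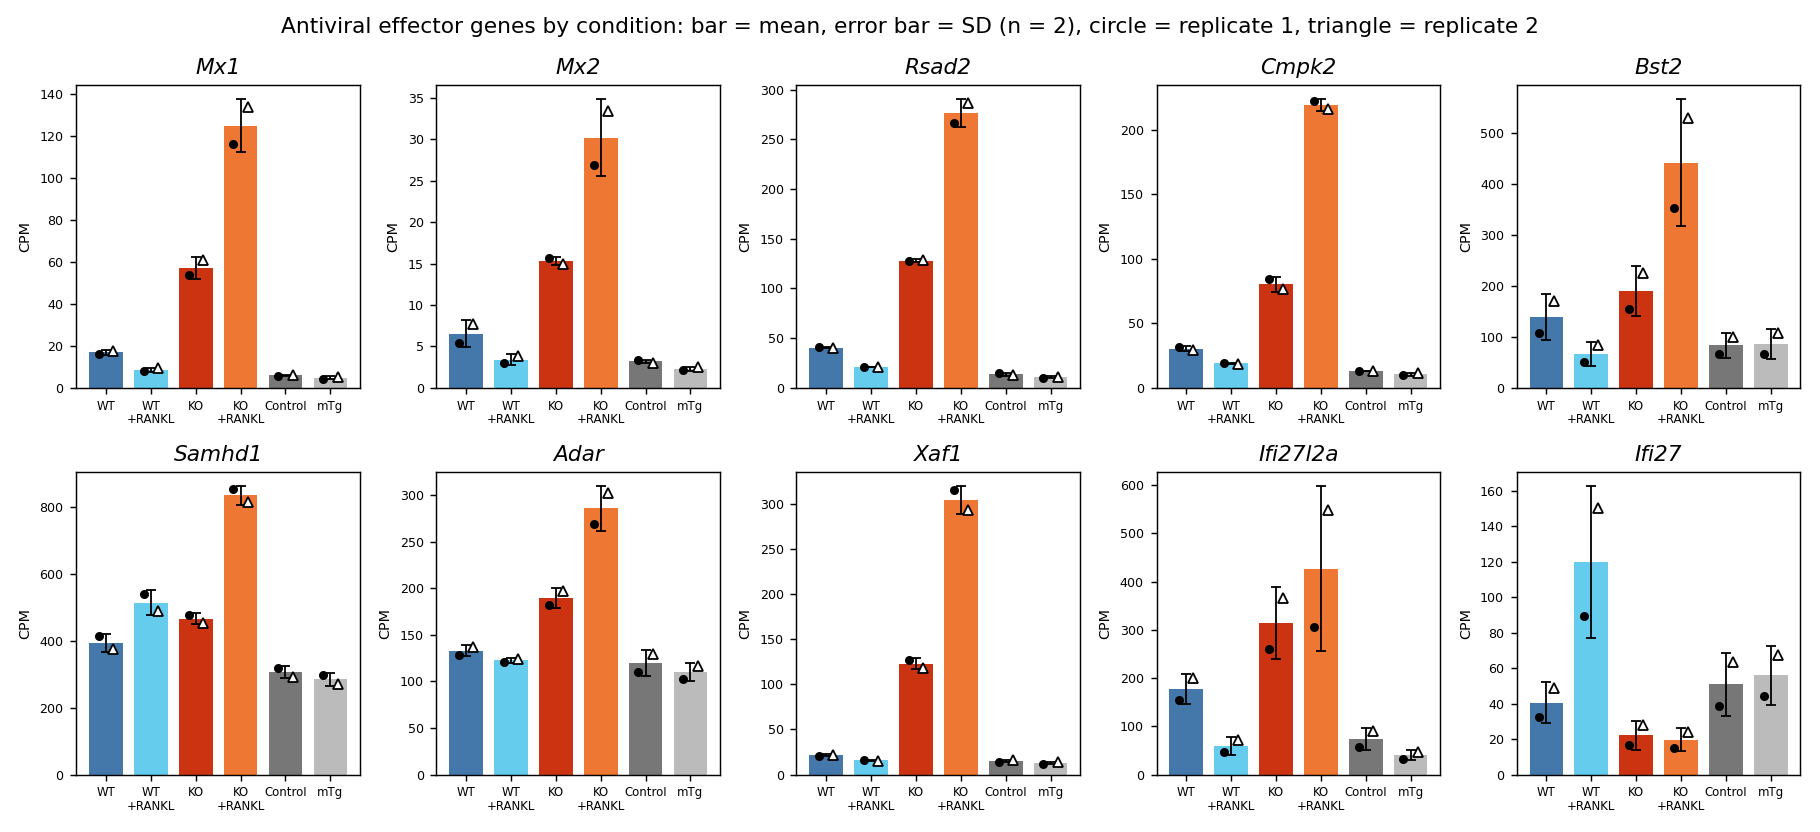
CPM of the 10 antiviral effectors in the 6 conditions, on a linear axis of its own for each gene. Bars are the mean of 2 replicates, error bars the SD, circles replicate 1 and triangles replicate 2. KO after RANKL has the highest mean for every gene but Ifi27, which is highest in WT after RANKL (119.7 CPM). For Ifi27l2a the replicates of KO after RANKL overlap those of KO at baseline, but within each replicate number KO after RANKL is higher.

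In the means, every effector but Ifi27 was highest in KO after RANKL, and Ifi27 was lowest there. KO at baseline came second for 8 of them, all but Samhd1. WT at baseline came next for these 8. At the bottom, mTg was lowest for 8 of the 10 genes and Control second lowest for 8. For Mx1, Rsad2 and Cmpk2 all 5 steps of the order were free of overlap between the replicates of neighbouring conditions. For Bst2 4 of the 5 steps overlapped, and only KO after RANKL stood clear. For Ifi27l2a and Ifi27 3 of the 5 steps overlapped, among them that between KO after RANKL and KO at baseline. For Bst2, Ifi27l2a and Ifi27 the order of the 6 conditions was the same in replicate 1 and in replicate 2. Their overlaps were thus between libraries of unlike replicate number. Mx2 in WT after RANKL and in Control overlapped, and so did Xaf1 in the same 2 conditions. Adar in Control overlapped both WT after RANKL and mTg, which did not overlap each other. Over the 12 libraries the log2(CPM + 1) of each gene was compared with the mean standardised profile of the other 9, and Pearson's r was between 0.83 for Samhd1 and 0.99 for Mx1, but -0.72 for Ifi27. These 12 points are 6 conditions in pairs of replicates, so r is a description of shared conditions. The genes outside the list whose pattern was most like the mean profile, of 10265 genes ranked, were Ifi47, Oas1b, Irgm1, Oas2 and Gm12250, with r from 0.988 to 0.997.

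Per length, tetherin and Ifi27l2a were the most abundant effectors in KO after RANKL, but not in every condition. Values per kilobase of gene (RPKM), formed with the gene lengths behind the deposited RPKM, were 577 ± 163 for Bst2 and 483 ± 194 for Ifi27l2a in KO after RANKL (SD, n = 2). Samhd1 followed at 209 ± 6.89 RPKM and Xaf1 at 117 ± 5.85 RPKM. Mx1 was at 42.0 ± 4.19 RPKM and Mx2, the scarcest effector in that condition, at 12.5 ± 1.90 RPKM. In WT at baseline the same scale ran from 2.71 ± 0.687 RPKM for Mx2 to 201 ± 35.3 RPKM for Ifi27l2a. In WT after RANKL Samhd1 led at 129 ± 9.39 RPKM and Ifi27 followed at 114 ± 40.6 RPKM, with Bst2 at 87.1 ± 30.9 RPKM and Ifi27l2a at 67.3 ± 20.2 RPKM.

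The comparison of KO with WT after RANKL asks what loss of miR-182 does to these genes while cells form osteoclasts. Of the 10 genes, 9 were higher in KO and 1, Ifi27, was lower. Among all 11673 genes tested, 14.3% were called higher and 30.9% lower at an adjusted p under 0.05 (limma on log2(CPM + 1), Benjamini-Hochberg). Log2 differences below are on that scale, which understates low genes, except for mTg against Control, where they are edgeR log2 fold changes of counts, and folds in the means are ratios of mean CPM. The median of all genes was -0.14 here, and with TMM factors, which bring it close to 0, 20.9% were higher and 20.2% lower while the calls of the effectors were the same. In bulk RNA fewer cells of a type and less RNA per cell cannot be told apart.

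The dynamin-like GTPases Mx1 and Mx2, which trap viral nucleocapsids, showed the pattern clearly. C57BL/6 mice are known to carry defective Mx alleles, so the transcripts need not give a working protein. Mx1 was at 116 and 134 CPM in KO after RANKL and at 7.86 and 9.32 CPM in WT after RANKL. The KO and WT replicates were far apart, 14.5-fold in the means, and the log2 difference was 3.71 (SE 0.12, adjusted p = 1.70e-06). Mx2 was at 27.0 and 33.5 CPM in KO and at 2.95 and 3.85 CPM in WT, a log2 difference of 2.83 (SE 0.18, adjusted p = 3.12e-05).

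The neighbouring nucleotide enzymes moved together with them. Rsad2 encodes viperin, which turns CTP into a chain terminator of viral polymerases, and Cmpk2 encodes a mitochondrial kinase that makes nucleoside diphosphates, CTP precursors among them. Rsad2 was at 266 and 286 CPM in KO after RANKL against 21.2 CPM in both WT replicates. The log2 difference was 3.64 (SE 0.06, adjusted p = 2.00e-07), or 13.0-fold in the means. Cmpk2 was at 222 and 216 CPM in KO and at 19.4 and 18.7 CPM in WT, with a log2 difference of 3.46 (SE 0.08, adjusted p = 5.25e-07).

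Xaf1, a pro-apoptotic antagonist of the caspase inhibitor XIAP, differed the most. It was at 315 and 293 CPM in KO after RANKL against 16.3 and 15.3 CPM in WT, 19.3-fold in the means and 4.18 on the log2 scale (SE 0.08, adjusted p = 2.75e-07). Tetherin, Bst2, holds budding virions at the cell membrane. It was at 353 and 530 CPM in KO and at 50.0 and 83.5 CPM in WT, and replicate 2 was the higher in both genotypes. The log2 difference was 2.72 (SE 0.34, adjusted p = 0.000676). Ifi27l2a, a small hydrophobic protein of the ISG12 family, was at 306 and 548 CPM in KO and at 46.8 and 72.1 CPM in WT, a log2 difference of 2.80 (SE 0.32, adjusted p = 0.000470).

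Adar and Samhd1 differed least among the 9 higher genes. Adar encodes the enzyme that edits adenosine to inosine in double-stranded RNA, and was at 269 and 303 CPM in KO after RANKL against 121 and 124 CPM in WT. Its log2 difference was 1.21 (SE 0.08, adjusted p = 3.42e-05). Samhd1, which breaks down deoxynucleotides and so starves reverse transcription, was at 856 and 817 CPM in KO and 542 and 489 CPM in WT. The log2 difference was 0.70 (SE 0.08, adjusted p = 0.000418), the smallest of the 9.

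Ifi27, the ISG12 relative next to Ifi27l2a, went the opposite way. It was at 15.0 and 24.3 CPM in KO after RANKL and at 89.5 and 150 CPM in WT after RANKL, 6.10-fold lower in the KO means. The log2 difference was -2.54 (SE 0.37, adjusted p = 0.00133). The lower KO level and the higher WT level did not overlap in spite of the gap between replicates.

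Because of the unlike Lyz2 and Ifi202b levels of WT after RANKL, KO after RANKL was also set against WT at baseline, a choice made after seeing the data. The same 9 genes were higher and Ifi27 was lower, with 33.4% of all genes higher and 28.3% lower in that fit. The log2 differences were 2.81 for Mx1, 2.06 for Mx2, 2.74 for Rsad2, 2.81 for Cmpk2 and 3.78 for Xaf1. Bst2 gave 1.67, Ifi27l2a 1.21, Adar 1.10 and Samhd1 1.08, and Ifi27 gave -1.02 (adjusted p = 0.0350). This setting mixes genotype with RANKL treatment.

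At baseline, without RANKL, 6 effectors were already higher in KO than in WT and none was lower at an adjusted p under 0.05. Among all genes 2.72% were called higher and 1.11% lower. With replicate number as a block, 9 were called higher and Ifi27 lower, against 18.6% and 12.7% of all genes.

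Xaf1 again differed most, at 127 and 118 CPM in KO against 20.4 and 22.1 CPM in WT, a log2 difference of 2.48 (SE 0.08, adjusted p = 3.01e-05). Mx1 was at 53.5 and 60.6 CPM against 16.1 and 17.8 CPM (1.69, SE 0.12, adjusted p = 0.000883). Rsad2 was at 127 and 129 CPM against 40.7 and 40.4 CPM (1.64, SE 0.06, adjusted p = 5.33e-05). These 3 genes were 3.16- to 5.78-fold higher in KO in the means. Cmpk2 was at 84.4 and 76.3 CPM against 31.6 and 29.1 CPM (1.37, SE 0.08, adjusted p = 0.000357).

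Mx2 and Adar passed more narrowly. Mx2 was at 15.7 and 15.0 CPM in KO against 5.38 and 7.74 CPM in WT (1.13, SE 0.18, adjusted p = 0.0220). Leaving out WT replicate 1, KO replicate 1 or KO replicate 2 took it past the threshold, with adjusted p = 0.0998, 0.147 and 0.126. Adar was at 182 and 197 CPM against 129 and 137 CPM (0.51, SE 0.08, adjusted p = 0.0204), and leaving out any 1 of the 4 libraries gave adjusted p between 0.0841 and 0.151.

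The other 4 effectors were not called at baseline, with adjusted p from 0.184 for Samhd1 to 0.627 for Bst2, whose groups overlapped. Bst2 was at 155 and 225 CPM in KO against 107 and 171 CPM in WT, a log2 difference of 0.46 (SE 0.34), and Ifi27l2a was at 261 and 367 CPM against 156 and 200 CPM, a difference of 0.81 (SE 0.32). Samhd1 differed by 0.24 (SE 0.08) and Ifi27 by -0.86 (SE 0.37). The block changed these 4 calls, with adjusted p from 2.06e-10 to 1.80e-06. Replicate 2 exceeded replicate 1 in all conditions for Bst2 (1.45- to 1.67-fold), Ifi27 (1.51- to 1.69-fold) and Ifi27l2a (1.28- to 1.79-fold), whose lengths are 0.766, 1.05 and 0.883 kb, while the other 7 genes, 2.42 kb or longer, had ratios of 0.879 to 1.44. Over the 526 genes shorter than 1 kb the median ratio was 1.08. The part of transcript length in this was not tested.

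Most effectors were higher after RANKL in KO, and most were lower after RANKL in WT. In KO, RANKL raised 8 of the 10 and lowered none, with 30.5% of all genes called higher and 26.3% lower. In WT after RANKL, 7 were lower and 2 higher than in WT at baseline, with 40.6% of all genes called higher and 22% lower. These 2 WT groups also differed in Lyz2 and Ifi202b, and the part of that difference was not tested. The block gave 9 and 1 in KO, with Ifi27l2a also higher (adjusted p = 9.00e-06) and Ifi27 lower (adjusted p = 0.0117), against 42.8% and 36.2% of all genes. In WT it gave 2 higher and 8 lower, Adar joining the lower genes (adjusted p = 0.00531), against 52.9% and 28.9% of all genes.

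**Figure D2:**
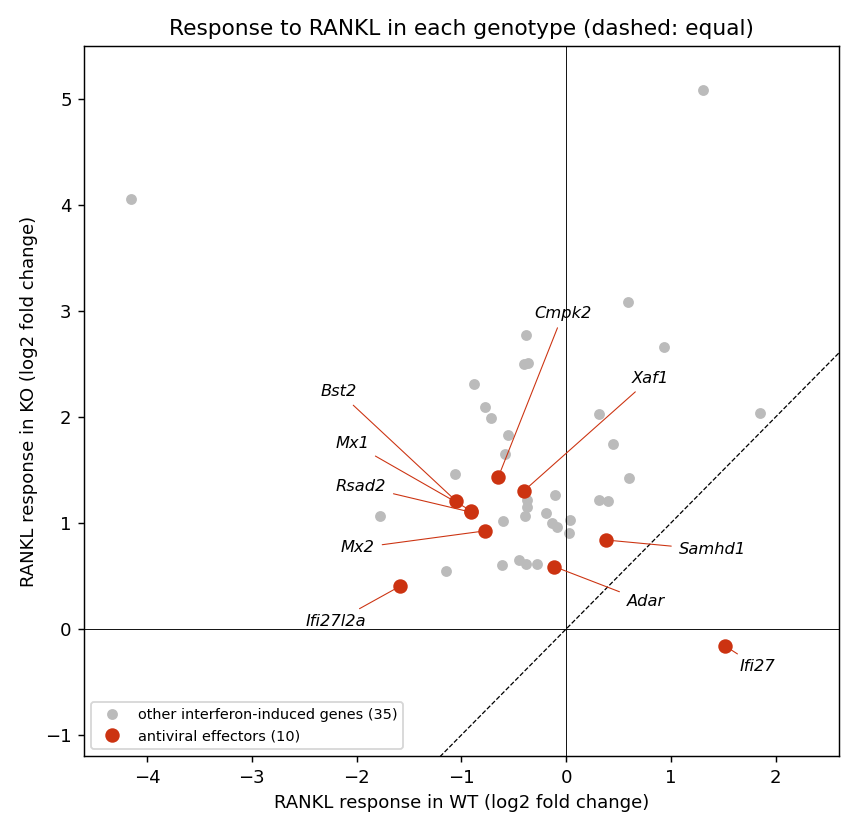
Log2 fold change with RANKL in WT (horizontal axis) against that in KO (vertical axis) for the 10 antiviral effectors in red and 35 other interferon-induced genes in grey, with a dashed line of equal response. Ifi27 is the effector below the line, at 1.52 in WT and -0.16 in KO, and the other 9 lie above it.

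In KO the steepest RANKL response was that of Cmpk2, which went from 84.4 and 76.3 CPM to 222 and 216 CPM, a log2 change of 1.44 (SE 0.08, adjusted p = 7.28e-06). Xaf1 rose by 1.30 (SE 0.08), Bst2 by 1.21 (SE 0.34), Mx1 by 1.11 (SE 0.12), Rsad2 by 1.10 (SE 0.06) and Mx2 by 0.93 (SE 0.18). Samhd1 rose by 0.84 (SE 0.08) and Adar by 0.59 (SE 0.08). The adjusted p of these was from 9.12e-06 to 0.0193, the largest belonging to Bst2, whose call was lost without KO baseline replicate 1 (adjusted p = 0.104) or KO RANKL replicate 2 (adjusted p = 0.113). The change of Ifi27l2a was 0.40 (SE 0.32, adjusted p = 0.323) and that of Ifi27 was -0.16 (SE 0.37, adjusted p = 0.728). Fitted without the WT libraries after RANKL, the same 8 genes were higher and none was lower.

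Between WT at baseline and WT after RANKL, Ifi27l2a fell the most, from 156 and 200 CPM to 46.8 and 72.1 CPM. Its log2 change was -1.59 (SE 0.32, adjusted p = 0.00413). Bst2 changed by -1.05 (SE 0.34), Mx1 by -0.91 (SE 0.12), Rsad2 by -0.91 (SE 0.06), Mx2 by -0.77 (SE 0.18), Cmpk2 by -0.65 (SE 0.08) and Xaf1 by -0.41 (SE 0.08). Ifi27 was higher after RANKL, at 89.5 and 150 CPM against 32.3 and 48.9 CPM, a change of 1.52 (SE 0.37, adjusted p = 0.00891). Samhd1 was higher by 0.38 (SE 0.08, adjusted p = 0.00436) and Adar was at -0.11 (SE 0.08, adjusted p = 0.252).

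The WT response depended on scaling and on its baseline. The median log2 change of all genes in WT was 0.19, and with TMM factors, which bring it close to 0, 28.8% of genes were higher and 30.5% lower, Samhd1 lost its call (0.17, adjusted p = 0.0829) and Adar was lower (-0.32, adjusted p = 0.0112). The calls of Bst2 (without WT baseline replicate 2, or without WT RANKL replicate 1), of Mx2 (without WT RANKL replicate 1) and of Ifi27 (without WT baseline replicate 1, or without WT RANKL replicate 2) were lost when that library was left out, with adjusted p between 0.0503 and 0.158. With Control, whose Lyz2 and Ifi202b levels are closer to those of WT after RANKL, in place of WT at baseline, 5 effectors were higher (29.6% of all genes) and none was lower (23.1%). Mx1 then changed by 0.47, Rsad2 by 0.61 and Cmpk2 by 0.51, the reverse of their direction against WT at baseline. The fall of these genes with RANKL in WT thus had a different sign against each of the 2 baselines.

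The difference between the 2 RANKL responses, tested as the interaction of genotype with RANKL, was positive for 9 effectors and passed for no gene in the negative direction, against 7.46% and 17.2% of all genes (10.6% and 10.9% with TMM factors, with the same 9 calls). It was 2.26 on the log2 scale for Bst2 (SE 0.48), 2.08 for Cmpk2 (SE 0.11), 2.02 for Mx1 (SE 0.17), 2.01 for Rsad2 (SE 0.09) and 1.99 for Ifi27l2a (SE 0.46). Xaf1 followed with 1.71 (SE 0.11), Mx2 with 1.70 (SE 0.26), Adar with 0.70 (SE 0.11) and Samhd1 with 0.46 (SE 0.11). Adjusted p was from 3.31e-05 for Rsad2 to 0.0242 for Samhd1. Ifi27 gave -1.68 (SE 0.52, adjusted p = 0.0550), and -1.68 with adjusted p = 2.00e-13 under the block. With the block 42.8% of all genes were called lower and 16.1% higher. The interaction test uses the WT libraries after RANKL and could not be run without them. Leaving out WT baseline replicate 1 or 2, WT RANKL replicate 1 or 2, KO baseline replicate 1 or 2, or KO RANKL replicate 1 or 2 took at least 1 of Samhd1, Ifi27l2a and Bst2 past the threshold, with adjusted p from 0.0508 to 0.0881, and Ifi27 passed without WT RANKL replicate 1 (adjusted p = 0.0438) or KO baseline replicate 1 (adjusted p = 0.0451).

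**Figure D3:**
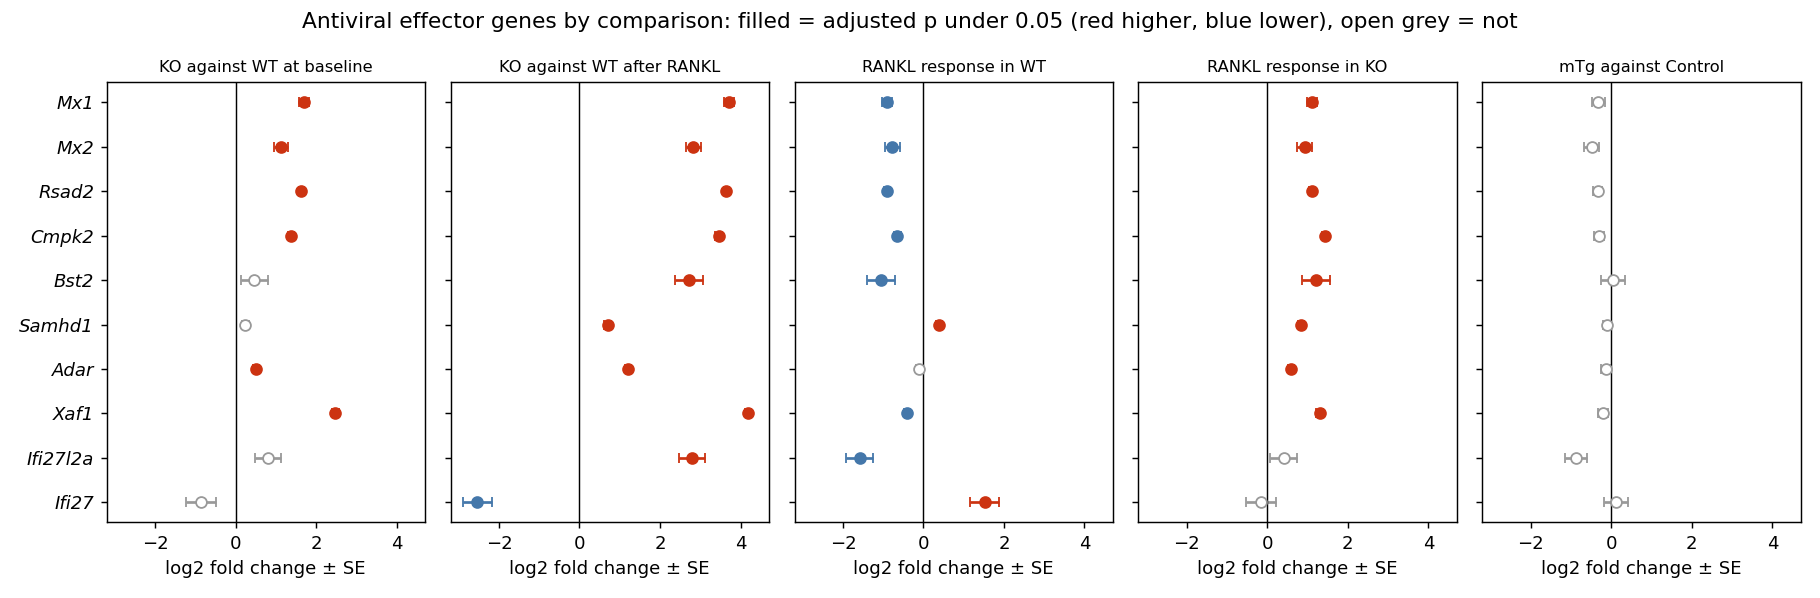
Log2 fold change with its SE for each antiviral effector in 5 comparisons, on a shared axis. Filled points have an adjusted p under 0.05, red for higher and blue for lower, and open grey points do not. Xaf1 is farthest to the right in both comparisons of KO with WT, at 2.48 and 4.18, and no point is filled in mTg against Control.

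The gain of function experiment asks the converse question, what extra miR-182 does to the same genes at baseline. No effector was called higher or lower in mTg (edgeR quasi-likelihood test with TMM factors), against 0.0995% and 0.158% of the 12063 genes tested. Mx2, Rsad2, Cmpk2 and Ifi27l2a were lower in mTg at an unadjusted p under 0.05 and none was higher, with adjusted p from 0.513 to 0.686. The share of all genes at that unadjusted threshold was not counted. With replicate number as a block, 5 effectors were called lower and none higher, against 8.24% and 6.97% of all genes. DESeq2 called 1 lower, Ifi27l2a (adjusted p = 0.00369), against 0.572% of all genes.

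Ifi27l2a showed the largest difference, at 33.1 and 47.8 CPM in mTg against 57.5 and 90.5 CPM in Control, a log2 difference of -0.88 (SE 0.27, adjusted p = 0.513). The mTg and Control replicates did not overlap. With the block it was -0.87 (adjusted p = 2.00e-09). Rsad2 was at 10.3 and 11.4 CPM against 14.5 and 12.7 CPM, and Cmpk2 at 9.86 and 11.4 CPM against 13.1 and 13.0 CPM. Under the block these differed by -0.35 (adjusted p = 0.0177) and -0.31 (adjusted p = 0.0253). Samhd1 differed by -0.12 (adjusted p = 0.0112) and Adar by -0.13 (adjusted p = 0.0191).

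The remaining 5 effectors did not pass with the block either. Mx1 was at 4.30 and 5.26 CPM in mTg against 5.65 and 6.20 CPM in Control and Mx2 at 2.15 and 2.47 CPM against 3.35 and 3.06 CPM, with adjusted p = 0.0920 and 0.0685. Xaf1 differed by -0.20 (adjusted p = 0.109), Bst2 by 0.04 and Ifi27 by 0.13. In numbers of times, the mTg means ran from 0.546 for Ifi27l2a to 1.10 for Ifi27 of the Control mean, set beside 0.548 to 5.78 for KO of WT at baseline and 0.164 to 19.3 for KO of WT after RANKL. The summed level of 5 neutrophil markers was 70.8 to 79.6 CPM in mTg and 27.9 to 30.2 CPM in Control, and its part in these values was not tested.

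Neither Control nor WT carries an altered Mir182 by the labels, and their baseline effector levels differed. Of the 10 genes, 7 were lower in Control than in WT and none was higher, with 32.4% of all genes called higher and 19.5% lower in the fit of all 12 libraries. The lower genes were Rsad2 (log2 difference -1.51), Mx1 (-1.37), Ifi27l2a (-1.28), Cmpk2 (-1.16), Mx2 (-0.83), Xaf1 (-0.49) and Samhd1 (-0.36), and Bst2, Adar and Ifi27 were not called. The block called 9 lower and Ifi27 higher, against 28.5% and 46.3% of all genes. The call of Ifi27l2a was lost without WT baseline replicate 2 (adjusted p = 0.0754) or Control replicate 1 (adjusted p = 0.0916). KO at baseline set against Control, in place of WT, gave 9 higher effectors and Ifi27 lower, against 16.5% and 28.1% of all genes. Differences between the 2 experiments and between their mice cannot be told apart. With TMM factors 8 effectors were lower in Control, Adar included, and 25.2% of all genes were higher and 25.3% lower.

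The other genes of the pathway were measured beside the effectors. In KO against WT after RANKL, 35 of 35 other interferon-induced genes were higher, as were 9 of the 10 effectors, against 14.3% of all genes. The median log2 difference was 2.21 for the 35 genes, 2.81 for the effectors and -0.14 for all genes. The 2 with the largest difference were Ifi44 (5.88) and Cxcl10 (4.81), a chemokine, and the 2 with the smallest were Ube2l6 (0.78), the ISG15-conjugating enzyme, and Trex1 (1.26), a cytosolic DNase. Ifi44 was itself at 66.4 and 62.9 CPM in WT at baseline, 2.83 and 2.56 CPM in WT after RANKL, 12.7 and 11.4 CPM in KO at baseline and 1.31 and 1.13 CPM in Control. Against WT at baseline in place of WT after RANKL, 35 of 35 were again higher in KO after RANKL (median 2.03), with Ifi44 at 1.72, Cxcl10 at 6.12, Ube2l6 at 2.63 and Trex1 at 1.86. At baseline 29 of the 35 were higher in KO and 1, Ifi44, lower (34 and 1 with the block). RANKL raised 34 of 35 in KO (median 1.27, 35 with the block) and lowered 17 and raised 7 in WT (median -0.37, 24 and 9 with the block). Of all genes, RANKL raised 30.5% in KO, and lowered 22% and raised 40.6% in WT (42.8%, 28.9% and 52.9% with the block). With Control in place of WT at baseline, RANKL raised 21 and lowered 2 in WT (median 0.37), against 29.6% and 23.1% of all genes. In mTg 1 of 35, Zbp1, was lower than in Control (-1.35, adjusted p = 0.0449, named after its value was seen), against 0.158% of all genes. With the block 25 of 35 were lower (median -0.26), against 8.24% of all genes.

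The inducers and transducers upstream differed more among themselves. Ifnb1, which encodes interferon-β, reached at most 5 reads in a library, 0.0985 and 0.197 CPM in KO after RANKL, and was at 0 in both WT conditions, too few reads for a comparison. Of the receptor chains, Ifnar1 was higher in KO after RANKL by 0.23 (adjusted p = 0.0155) and Ifnar2 by 0.34 (adjusted p = 0.0128) on the log2 scale. Irf7, the interferon-inducible amplifier, was at 1297 and 1355 CPM in KO after RANKL against 47.6 and 49.7 CPM in WT, a log2 difference of 4.74 (SE 0.06, adjusted p = 7.96e-08). Stat2 differed by 2.32 and Irf9 by 0.80. Against WT at baseline, Irf7 differed by 4.50, Stat2 by 1.02, Irf9 by 0.51 and Ifnar1 by 0.24, and Ifnar2 was lower in KO after RANKL (-0.27, adjusted p = 0.0276). Of the 12 tested genes of the chain 7 were higher and 3 lower in KO after RANKL, against 14.3% and 30.9% of all genes. With the block these were 8 and 4 (23.4% and 49.8% of all genes), and against WT at baseline 7 and 4 (33.4% and 28.3%). At baseline 3 were higher and 0 lower (2.72% and 1.11% of all genes), 4 and 2 with the block (18.6% and 12.7%). In mTg against Control 0 were called (0.0995% of all genes higher and 0.158% lower). With the block 0 were higher and 2 lower (6.97% and 8.24% of all genes), and Irf7 was at -0.62 (adjusted p = 8.94e-07, and 0.0907 without the block).

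Eif2ak2, which carries the TGCCAAA site and is among the other interferon-induced genes counted above, was higher in KO after RANKL. It was at 255 and 246 CPM in KO after RANKL against 90.0 and 80.5 CPM in WT (1.55, SE 0.10, adjusted p = 3.01e-05), and at 77.9 and 72.6 CPM in mTg against 121 and 111 CPM in Control (-0.63, SE 0.09, adjusted p = 0.0848, and 3.88e-09 with the block). Against WT at baseline it was 1.16 higher in KO after RANKL (adjusted p = 0.000118). KO at baseline was 0.55 higher than WT at baseline. The adjusted p was 0.0491 in the fit without the WT libraries after RANKL, and 1.13e-09 with the block. The part of the site in these differences was not tested. Relatives of Adar and of the nucleotide enzymes Samhd1 and Cmpk2 were also counted. Of these, 4 of 9 were higher and 2 lower in KO after RANKL, against 14.3% and 30.9% of all genes. At baseline 2 were higher and 0 lower, against 2.72% and 1.11%. With the block these counts were 6 and 2 after RANKL (23.4% and 49.8% of all genes) and 6 and 0 at baseline (18.6% and 12.7%). Against WT at baseline 6 were higher and 1 lower in KO after RANKL (33.4% and 28.3% of all genes).

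Markers of other cell states moved with the RANKL results. The summed level of 9 osteoclast markers was 10585 to 10797 CPM in WT after RANKL and 3171 to 3201 CPM in KO after RANKL, against 132 to 166 CPM at baseline in the same genotypes. In KO against WT after RANKL 8 of 9 osteoclast markers were lower, while 2 of 6 macrophage markers were higher and 1 lower (3 and 2 with the block). Against WT at baseline 8 of 9 osteoclast markers were higher in KO after RANKL, and 1 macrophage marker was higher and 3 lower. Of all genes, 14.3% were higher and 30.9% lower against WT after RANKL (23.4% and 49.8% with the block). Against WT at baseline these shares were 33.4% and 28.3%. The summed level of 5 neutrophil markers was 5.45 to 5.51 CPM in KO after RANKL and 17.6 CPM in WT after RANKL. The part of these markers in the effector differences was not tested. At baseline 0 of 9 osteoclast markers were called in KO against WT, and 1 was higher with the block. Of the macrophage markers 1 was higher and 1 lower there, or 1 and 3 with the block. The shares of all genes were 2.72% higher and 1.11% lower, or 18.6% and 12.7% with the block.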

How the data were processed

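RNA of mouse BMMs was, per the authors, poly-A+ selected for Illumina TruSeq libraries, and reads were aligned to mm10 with TopHat or HISAT2, counted with HTSeq and turned into RPKM with Cufflinks and CPM with edgeR. The labels name polyA RNA, TopHat and Cufflinks for every replicate 1, and total RNA, HISAT2, HTSeq and edgeR for every replicate 2. For WT and KO the authors deposited CPM, which divides each count by the library total. All CPM values gave whole reads, within 0.05 of a read. For Control and mTg they deposited raw counts per gene, scaled here to CPM. Replicate 1 files also hold deposited RPKM, used here only for gene lengths. Of 24421 rows, 27 names turned into dates were left out.

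CPM was tested with limma (3.58.1, trend) on log2(CPM + 1) for genes at 1 CPM or more in at least 2 samples, in a fit of the 8 loss of function samples or, for Control against WT, of all 12. Counts of mTg and Control were tested with edgeR (4.0.16, TMM, filterByExpr, quasi-likelihood test). DESeq2 (1.42.0) was run as an alternative. P-values were adjusted by Benjamini-Hochberg over all genes tested, with a threshold of 0.05 and no fold limit. The SE of an edgeR value is its absolute fold change divided by the square root of F. The tests were also run on simulated counts without a batch between replicates, so that run does not show how they behave with the replicate difference here. Intervals of reads cover counting error only.

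The change of replicate 2 against replicate 1 correlated over genes between conditions (Pearson's r from 0.686 to 0.754 over all pairs of conditions), so the numbers were taken to pair samples. Between WT and KO at baseline, which cannot share a mouse, r was 0.747, against 0.754 within WT and 0.700 within KO. The replicate numbers coincide with the named molecule and tools, so the block may stand for a batch in place of paired mice. It is given where it alters the calls of the effectors and the counts of the lists described. Replicates differed by more than counting noise (mean chi-square per gene 38.9 to 72.3), which, with molecule and tools also differing, does not show separate samples. The genes, the other gene lists and the tests were chosen with earlier results of these data known. Named genes are all 10 effectors, preset genes of the interferon chain, Eif2ak2, Lyz2, Ifi202b, Mir182 and, of the other interferon-induced genes the 2 largest and 2 smallest differences in KO against WT after RANKL. Zbp1, Chrnb2, Ifi27l2b and Rn45s are outside that rule. A preset gene of the chain is not reported here. Alternatives changed the pseudocount, filter, scaling, tool, block, samples and reference group.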

Additional observations from a re-analysis of the deposited data

Results flagged for a closer look

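The RANKL response differed between KO and WT, by the test of the difference itself (limma, Benjamini-Hochberg, adjusted p under 0.05), for 9 effectors. Of all genes 7.46% were called higher and 17.2% lower in that test. The calls of Samhd1, Ifi27l2a and Bst2 were lost when some single libraries were left out. The response in KO minus that in WT was 2.26 for Bst2, 2.08 for Cmpk2, 2.02 for Mx1, 2.01 for Rsad2, 1.99 for Ifi27l2a, 1.71 for Xaf1, 1.70 for Mx2, 0.70 for Adar and 0.46 for Samhd1, on the log2 scale. All 9 rest on the WT libraries after RANKL, in which Lyz2 was at 4117 and 4288 CPM against 39.8 to 44.0 CPM in WT at baseline, and the part of that difference was not tested.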

How the results depend on the processing

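Between the settings tried, no effector changed direction in KO against WT after RANKL, at baseline or in the interaction. With the replicate block 1 effector was called lower in each of KO against WT at baseline, RANKL in KO and the interaction. Of all genes 12.7%, 36.2% and 42.8% were lower there. The block also called 9 effectors higher in KO at baseline and 9 raised by RANKL in KO (18.6% and 42.8% of all genes). With it 8 were lowered by RANKL in WT and 9 were lower in Control against WT (28.9% and 28.5%). Further, 5 were lower in mTg against Control (8.24%) and 1 was higher in Control against WT (46.3%). The block changed no call in KO against WT after RANKL. DESeq2 called 1 lower in the interaction and 1 lower in mTg, against 8.44% and 0.572% of all genes. A limma fit of only the samples of the contrast called 4 effectors higher in KO at baseline and 0 lower, in place of 6 and 0. The shares of all genes were 0.661% and 0.281%. Mx2 (adjusted p = 0.0711) and Adar (adjusted p = 0.0805) were then not called. TMM factors, edgeR and DESeq2 each left 1 effector raised by RANKL in WT and called 8 lowered, Adar among them. In these settings RANKL raised 27.9% to 28.8% of all genes and lowered 26.9% to 30.5% in WT. Leaving out single libraries gave 1 to 2 raised there, 0 to 1 lower in the interaction and 0 to 1 lower in mTg. It moved Ifi27 from -0.53 to 0.20 and Ifi27l2a from -0.017 to 0.82 in the RANKL response of KO, Bst2 from -0.34 to 0.38 and Ifi27 from -0.21 to 0.53 in mTg, and Ifi27 from -0.047 to 0.66 in Control against WT. Where an arm then held 1 library, it was assumed to vary like the others. Added after seeing the data, Control in place of WT at baseline gave 5 raised and 0 lowered by RANKL (29.6% and 23.1% of all genes). The same change gave 1 effector lower in KO at baseline, against 28.1% of all genes. In the RANKL response of WT it reversed Mx1 (0.47), Mx2 (0.059), Rsad2 (0.61), Cmpk2 (0.51), Adar (0.040) and Xaf1 (0.087). The cause was not tested. Depth limits Ifnb1, which had at most 5 reads in a library.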
